A study of Mus musculus with 7 samples.

Results

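The genes described here were 7 immunity-related GTPases (IRGs) of the mouse, taken by symbol from the feature lists of the series: Igtp, Irgm1, Irgm2, Iigp1, Tgtp1, Tgtp2 and Ifi47. All 7 were found among 33696 features, and together they held 75584 of the 617821747 unique molecular identifiers (UMIs, each counting 1 captured RNA molecule) of 34297 retained cells. Iigp1 gave 26456 UMIs, Ifi47 17886, Irgm1 13856, Igtp 8491, Irgm2 6604, Tgtp2 1840 and Tgtp1 451. Each of the 7 libraries was a dissociated tumor, profiled by 3′ single-cell RNA sequencing, from a subcutaneous allograft of JW23.3, a murine malignant peripheral nerve sheath tumor (MPNST) line that carries a knockout of Nf1. The hosts were female wild-type C57/B6 mice, 5 to 6 weeks old, and carried the graft in the flank. Radiation was delivered at 2 Gy a day on 5 days to the irradiated tumors (n = 4), whereas the control tumors (n = 3) received none. The tumor cells of both groups thus came from a single line with the same engineered deletions, and the host microenvironment was wild type in both.

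IRGs are large GTPases that interferon-γ induces, and they are best known for attacking the vacuoles in which intracellular pathogens live. Iigp1 (Irga6), Tgtp1 and Tgtp2 (Irgb6) and Ifi47 (Irgd) are effector members that load onto such vacuoles, whereas Irgm1, Irgm2 and Igtp (Irgm3) are regulatory members that sit on the cell's own membranes and hold the effectors inactive there.

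Of the 7 genes, 6 lie in clusters on chromosome 11. In the GENCODE annotation of GRCm38, Irgm1 spans chr11:48861968-48871683 and Tgtp1 chr11:48985327-48994172 on the minus strand, followed by Tgtp2 at chr11:49057194-49064206 on the minus strand and Ifi47 at chr11:49076587-49096974 on the plus strand. Igtp (chr11:58199556-58207591) and Irgm2 (chr11:58199618-58222782) overlap on the plus strand of the same chromosome, and Tgtp1 overlaps the IRG-like gene Gm12185 on its own strand. These are overlaps of genomic spans, and reads from a stretch that 2 transcripts share could not be told apart. In the last 500 bases, where 3′ reads fall, 0% of the 90-base words of Igtp and of Irgm2 occurred in another gene. The promoter stretches of 5 members are shown since they carry the letters of the interferon-response elements that the family is known for. They were read from RefSeq promoter windows of GRCm38.p6, reaching 250 bases before and 50 bases after each annotated start, and are written 5′ to 3′ on the gene's strand. Capitals mark the core of an interferon-stimulated response element (ISRE, GAAA and GAAA with any 2 bases between them) and of an interferon-γ-activated site (GAS, TTCNNNGAA).
Igtp: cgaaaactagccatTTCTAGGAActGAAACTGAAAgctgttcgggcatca
Irgm2: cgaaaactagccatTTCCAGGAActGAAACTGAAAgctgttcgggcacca
Tgtp1: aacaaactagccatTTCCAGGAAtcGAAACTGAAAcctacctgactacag
Tgtp2: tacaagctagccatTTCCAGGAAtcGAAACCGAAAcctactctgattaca
Irgm1: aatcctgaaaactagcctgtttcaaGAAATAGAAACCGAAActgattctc

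The stretches start 59 bases before the RefSeq start for Igtp (chr11:58199497-58199546), 89 bases for Irgm2 (chr11:58214888-58214937), 102 bases for Tgtp1 (chr11:48992299-48992348), 95 bases for Tgtp2 (chr11:49064258-49064307) and 55 bases for Irgm1 (chr11:48871426-48871475). For Irgm2, Tgtp1 and Irgm1 the stretch lies inside the GENCODE span given above, which begins further upstream than the RefSeq start. Both motifs were searched on both strands. An ISRE core was present in 5 of the 6 member windows available, and a GAS in 4. In all 4 windows with both motifs, 2 bases separated the GAS from the ISRE core downstream of it. Irgm1 held 2 overlapping ISRE cores and no GAS, and the Ifi47 window held neither. Among 32851 RefSeq windows of the same length, 3.443% held an ISRE core, 8.298% a GAS and 0.4536% both. The Igtp and Irgm2 windows were 92.08% identical, and those of Tgtp1 and Tgtp2 80.51%. Such matches describe letters and were not tested as binding sites.

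**Figure D1:**
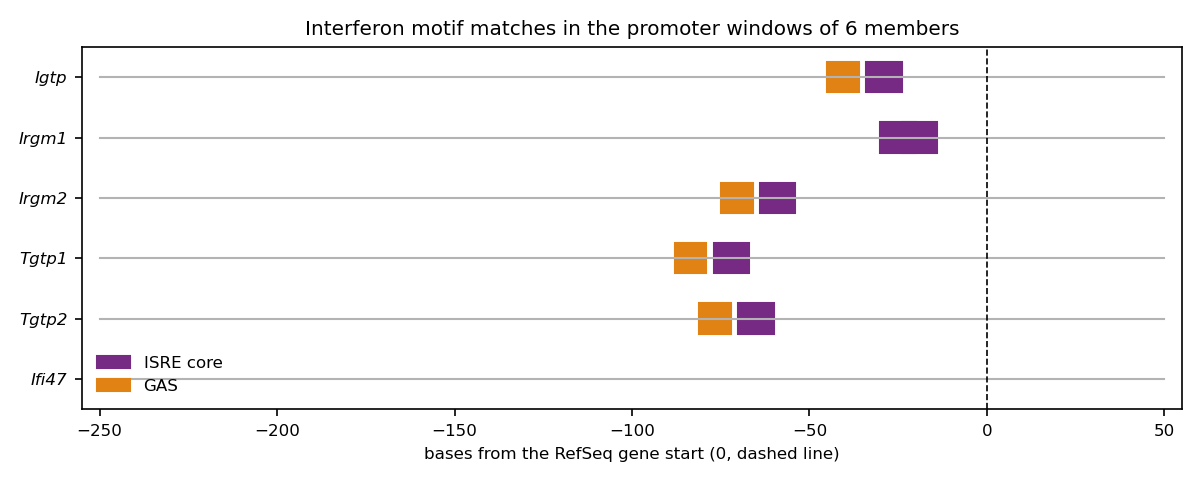
Positions of ISRE cores and GAS motifs in the RefSeq promoter windows of 6 members, with the x axis giving bases from the annotated start and each line standing for 1 window. The 4 genes with both motifs, Igtp, Irgm2, Tgtp1 and Tgtp2, have the GAS just upstream of the ISRE core, and Ifi47 has neither.

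The transcripts set a limit on the pair Tgtp1 and Tgtp2. Their transcripts were 99.79% identical over 2810 aligned bases, and 100% of the 90-base words in the last 500 bases, where 3′ reads fall, were shared between them. UMIs of Tgtp1 and Tgtp2 can therefore not be told apart with confidence. Their sum is given only where irradiated and control tumors are compared, in some classes. Elsewhere each gene was taken alone, so calls for both are not separate results. None of the 90-base words in the last 500 bases of the other 5 members (0%) occurred in another gene, and the most alike pair among those, Igtp and Irgm2, had transcripts 82.9% identical.

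The libraries held 53496570 to 153044123 UMIs over 2859 to 8452 cells, with medians of 6058.5 to 17930.5 UMIs a cell, and pairs of libraries shared 3 to 19 cell barcodes. Cells were assigned to classes by counts of detected marker genes that include no IRG: 15145 MPNST-like, 12784 macrophage-like, 1400 T/NK-like, 531 endothelial-like, 288 fibroblast-like, 227 dendritic-like, 207 pericyte-like, 70 keratinocyte-like and 36 B-like cells, with 3221 cells in no class and 388 in several. Xist, which only cells of the female hosts were taken to express, was detected in 80.6% of B-like cells and in 89.9% to 97.1% of the cells of each other host class gated without it, and was absent from MPNST-like cells by rule. MPNST-like cells were gated on at least 6 of 20 markers and held a median of 9. They carried Cdh11 (97.5% of cells), Col11a1 (93.1%) and Sox9 (85.8%), whereas the Schwann lineage markers Sox10 (0.0792%) and Ngfr (0.0924%) were near 0. These genes come from the marker lists of the gates, so a high share follows in part from the rule. By cell number, depth, genes per cell and mitochondrial and ribosomal share, the libraries were divided into 2 library sets, with irradiated 1, control 2 and control 3 in set 1 and irradiated 2, 3 and 4 with control 1 in set 2. The labels name no such sets, and whether they are technical or arose in the tumors cannot be told apart. Set 2 held 3 of the 4 irradiated tumors. The members' fold changes between irradiated and control tumors are given with and without a term for the set in each class, whereas the interaction, the pathway lists and the other IRGs were fitted without it.

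Levels are given as CPM, the UMIs of a gene per 1000000 UMIs of the class in that tumor, averaged over the 7 tumors with their SD. Of the effectors, Iigp1 was the member with the widest range among classes. It averaged 324 ± 323 CPM in endothelial-like, 279 ± 192 CPM in fibroblast-like and 221 ± 154 CPM in pericyte-like cells (SD, n = 7). T/NK-like cells followed at 99.8 ± 43.8 CPM, macrophage-like cells at 62.6 ± 39.6 CPM, MPNST-like cells at 45.7 ± 60.4 CPM and dendritic-like cells at 19.3 ± 18.97 CPM. The stromal and vascular classes thus led for this gene, and the tumor cells and dendritic-like cells closed the order. The order among the leading 3 rested on irradiated 2 (895 CPM from 19 endothelial-like cells) and irradiated 4 (673 CPM), since the medians over the 7 tumors were 252 CPM in fibroblast-like, 211 CPM in pericyte-like and 139 CPM in endothelial-like cells and the control means 169, 124 and 115 CPM. Tumor by tumor, fibroblast-like cells held 252, 159 and 96.5 CPM in controls 1 to 3 and 155, 307, 312 and 672 CPM in irradiated tumors 1 to 4, above the macrophage-like cells of the same tumor in 7 of 7.

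**Figure D2:**
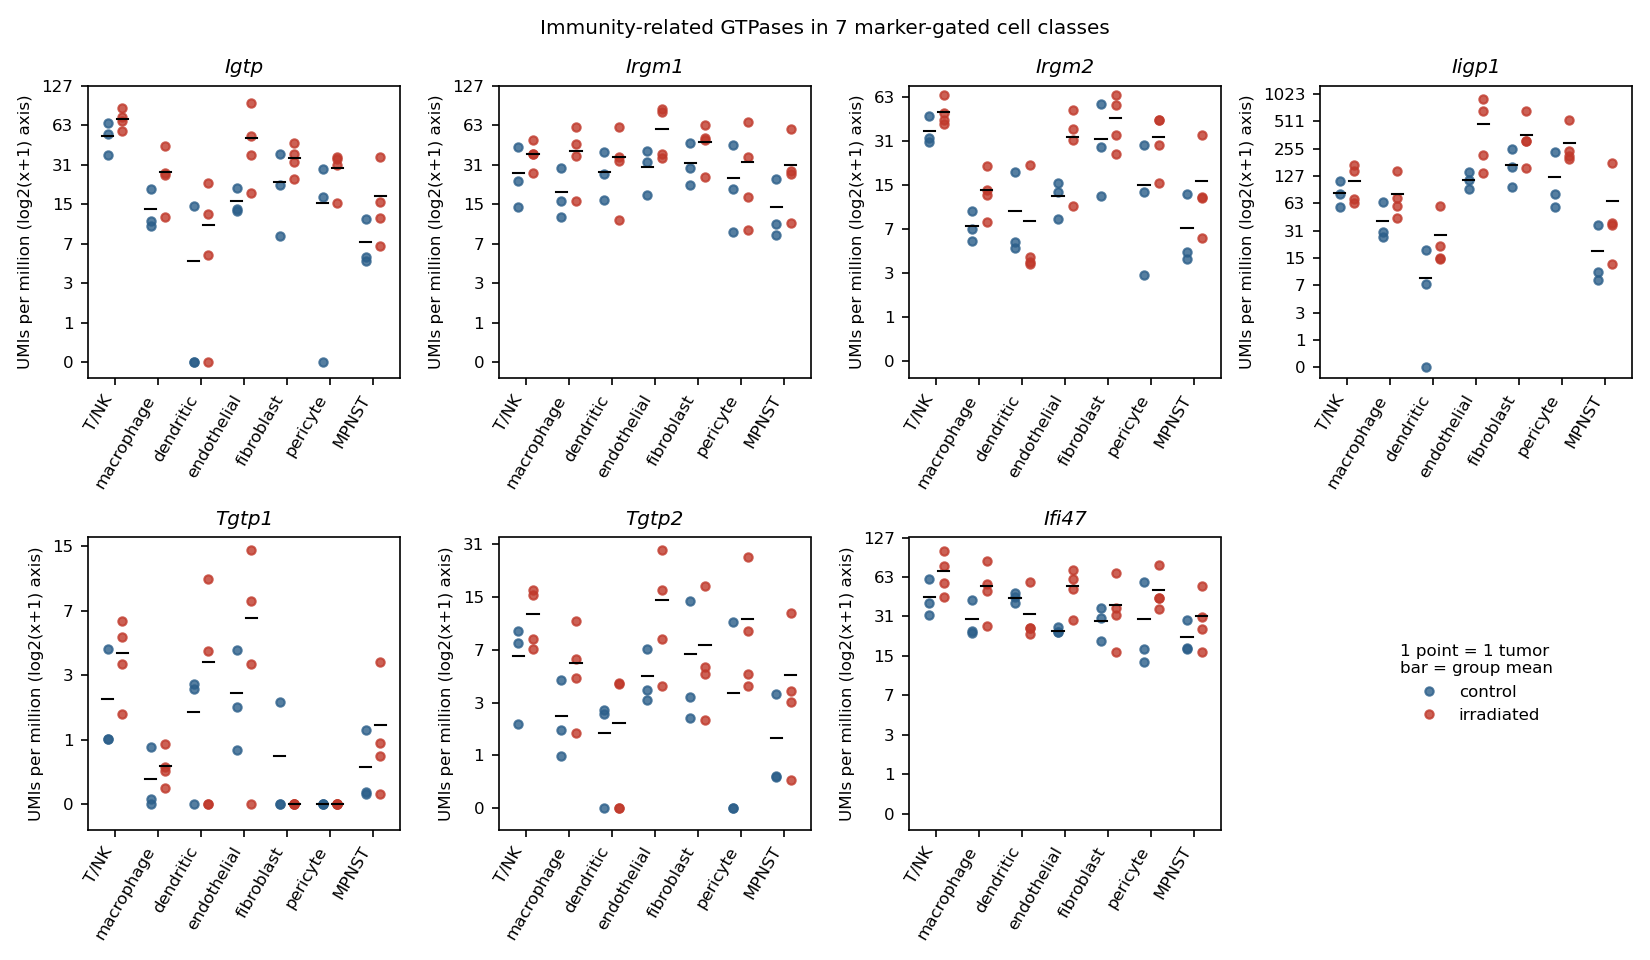
Level of each IRG in CPM in 7 cell classes on a log2(CPM + 1) axis, with each point a tumor, colored by group, and each bar a group mean. Over the 7 tumors the mean of Iigp1 spans from 19.3 CPM in dendritic-like to 324 CPM in endothelial-like cells, whereas that of Irgm1 spans from 23.8 to 46.8 CPM.

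The regulators Igtp and Irgm2 had their highest mean in T/NK-like cells. Igtp averaged 63.2 ± 15.6 CPM there, against 35.7 ± 29.5 CPM in endothelial-like, 29.7 ± 12.7 CPM in fibroblast-like, 23.3 ± 13.0 CPM in pericyte-like, 21.3 ± 12.2 CPM in macrophage-like, 13.1 ± 10.7 CPM in MPNST-like and 7.91 ± 8.88 CPM in dendritic-like cells. Irgm2 averaged 43.8 ± 11.3 CPM in T/NK-like and 39.3 ± 19.5 CPM in fibroblast-like cells and lay between 8.74 and 25.1 CPM in the other 5 classes. T/NK-like cells had more Igtp than macrophage-like cells in every tumor, with 65.4, 53.9 and 37.4 CPM against 19.9, 11.03 and 9.96 CPM in controls 1 to 3 and 57.2, 68.3, 73.8 and 86.0 CPM against 11.7, 26.8, 25.9 and 44.0 CPM in irradiated tumors 1 to 4.

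Irgm1, the third regulator, and the effector Ifi47 were spread more evenly. Irgm1 ran from 23.8 ± 17.8 CPM in MPNST-like to 46.8 ± 25.4 CPM in endothelial-like cells, and Ifi47 from 26.9 ± 13.3 CPM in MPNST-like to 58.6 ± 23.8 CPM in T/NK-like cells. Dendritic-like cells had the lowest mean of the 7 classes for Igtp, Irgm2, Iigp1 and Tgtp2. Their sums held only 23, 20, 56 and 5 UMIs of these, so the place for Irgm2 and Tgtp2 is within counting error. They were not low for Irgm1 (32.0 ± 16.5 CPM) or Ifi47 (37.2 ± 13.3 CPM). Tgtp2 averaged 10.1 ± 9.22 CPM in endothelial-like and 9.43 ± 5.00 CPM in T/NK-like cells and 3.36 ± 4.04 CPM in MPNST-like cells. Tgtp1 was sparse, averaging 4.66 CPM in endothelial-like, 3.24 CPM in T/NK-like, 2.78 CPM in dendritic-like and 0.968 CPM in MPNST-like cells. Macrophage-like cells held 0.415 CPM, fibroblast-like cells 0.286 CPM and pericyte-like cells 0 CPM. Its UMIs numbered 294 in MPNST-like, 1 in fibroblast-like and 0 in pericyte-like cells. Those classes held 417446735, 4049285 and 2066040 UMIs of all genes.

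Class differences were tested with edgeR's quasi-likelihood test on UMIs summed per tumor and class, with the tumor as a block, in the 4 classes that had at least 20 cells in every tumor. Every member was higher in T/NK-like than in MPNST-like cells (7 of 7 called), where 27.3% of all 14811 genes were called in that direction. On the log2 scale MPNST-like minus T/NK-like was -2.48 ± 0.18 (SE) for Igtp, -2.08 ± 0.18 for Irgm2, -1.71 ± 0.25 for Iigp1, -1.10 ± 0.12 for Ifi47 and -0.62 ± 0.16 for Irgm1, with adjusted p of 0.00117 or less. Fibroblast-like cells exceeded MPNST-like cells for 5 of 7 members (background 20.2%), led by Iigp1 at -2.99 ± 0.25 (adjusted p = 1.46e-09) and Irgm2 at -1.80 ± 0.21, whereas Ifi47 (-0.29 ± 0.15, adjusted p = 0.102, or 0.0333 with total UMIs alone) and Tgtp1 were not called. Fibroblast-like cells held a median of 6 of the 20 MPNST-like markers, the cut of that gate. Xist was required in fibroblast-like cells, so where a cell met both marker cuts it decided between these classes.

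Macrophage-like cells were above MPNST-like cells for 6 of 7 members (background 35.4%), with log2 differences of 1.24 ± 0.23 for Iigp1, 1.13 ± 0.16 for Igtp, 1.06 ± 0.29 for Tgtp2, 0.96 ± 0.11 for Ifi47, 0.76 ± 0.13 for Irgm1 and 0.36 ± 0.16 for Irgm2. Scaling by TMM (trimmed mean of M values) moved the median of all genes in this contrast by 0.296 relative to total UMIs, and by 0.343 and 0.364 in those of macrophage-like with T/NK-like and with fibroblast-like cells. With total UMIs alone, Irgm2 stood at 0.05 (adjusted p = 0.804) and 5 members stayed called. Tgtp1 was then called lower in macrophage-like cells at -0.96 (adjusted p = 0.0109), opposite to Tgtp2. UMIs of this pair cannot be told apart with confidence, and their sum was not tested between classes. T/NK-like cells were above macrophage-like cells for Igtp (-1.36 ± 0.18, macrophage-like minus T/NK-like), Irgm2 (-1.72 ± 0.18), Tgtp1 (-2.66 ± 0.45) and Tgtp2 (-0.92 ± 0.38), which made 4 of 7 against a background of 22.2%, and total UMIs alone gave 6. The share of all genes called with total UMIs alone was not determined in any of these contrasts. The difference for Irgm1, 0.14 ± 0.16 (adjusted p = 0.489), was within its error and turned to -0.21 with total UMIs alone. Against fibroblast-like cells, macrophage-like cells were lower for Iigp1 (-1.76 ± 0.24) and Irgm2 (-1.44 ± 0.21; 2 of 7, background 27.7%) and higher for Ifi47 (0.67 ± 0.14; 1 of 7, background 36.9%), and this last call was lost with total UMIs alone (0.30, adjusted p = 0.0602), which called 4 members lower, Igtp and Irgm1 being added. T/NK-like cells exceeded fibroblast-like cells for Igtp (1.12 ± 0.23), Ifi47 (0.81 ± 0.15) and Tgtp1 (3 of 7, background 29.3%) and were below them for Iigp1 (-1.29 ± 0.26; 1 of 7, background 27.5%).

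Endothelial-like, dendritic-like and pericyte-like cells had as few as 19, 17 and 12 cells in a tumor. They entered a second fit of 7 classes with a minimum of 10 cells, chosen after the data were seen, in which 6 members could be tested and Tgtp1 could not. For Iigp1 this fit placed endothelial-like, fibroblast-like and pericyte-like cells together, with differences between them of 0.03 ± 0.30, 0.36 ± 0.31 and 0.33 ± 0.31 (adjusted p = 0.946, 0.403 and 0.454). The next step down was called, T/NK-like minus pericyte-like cells being -0.92 ± 0.32 (adjusted p = 0.0141, background 25.6%). T/NK-like and macrophage-like cells did not differ beyond their error (-0.58 ± 0.29, macrophage-like minus T/NK-like, adjusted p = 0.0891, or 0.0133 with total UMIs alone), macrophage-like exceeded MPNST-like cells by 1.31 ± 0.28 (background 40.3%), and MPNST-like and dendritic-like cells did not differ beyond their error (0.52 ± 0.43, adjusted p = 0.299). Iigp1 in MPNST-like minus endothelial-like cells was -3.14 ± 0.31 on the log2 scale, and all 6 members tested were higher in endothelial-like cells (background 29.6%). For Igtp, T/NK-like cells exceeded endothelial-like cells by 1.20 ± 0.24 (adjusted p = 4.28e-05, background 25.1%) and dendritic-like cells by 2.89 ± 0.35 (background 22.1%). The classes between T/NK-like and MPNST-like cells in that order, endothelial-like, fibroblast-like, pericyte-like and macrophage-like, gave no call between neighbors for Igtp, with differences of 0.11 ± 0.28, 0.39 ± 0.34 and 0.04 ± 0.30.

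RNA released by broken cells gives UMIs in cells that do not express a gene, so the level of macrophage markers in the other classes was set beside the members. The 17 macrophage markers summed to 0.228% to 0.601% of their macrophage-like level in MPNST-like cells of the 7 tumors. They are the markers of the macrophage gate, and cells that met several gates were left out. A low level thus follows in part from the rule. Leukocyte genes outside the gates stood at 0.232% to 0.598% of their macrophage-like level in MPNST-like cells. In the same cells Igtp stood at 44.3% to 81.1% of its macrophage-like level, Irgm1 at 57.7% to 96.5%, Ifi47 at 44.2% to 75.7% and Iigp1 at 29.8% to 125%. In fibroblast-like, endothelial-like and pericyte-like cells the macrophage markers were at or below 1.25% of the macrophage-like level. They were highest in T/NK-like cells, at 3.03% to 4.82%, where Igtp stood at 195.7% to 489% and Irgm2 at 317% to 578% of their macrophage-like level. In pericyte-like cells the lowest tumor was at 0 for Igtp, Tgtp1 and Tgtp2, and Tgtp1 had a median of 0% in fibroblast-like cells. The part of RNA released by other classes was not tested.

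Within the immune classes, the levels differed among subsets gated by other markers, which are given as medians over tumors. Ly6c2-positive monocyte-like cells (694 cells) had more Ifi47 (74.6 against 35.5 CPM), Igtp (37.3 against 18.3 CPM) and Irgm1 (59.0 against 23.8 CPM) than macrophage-like cells positive for Mrc1 and C1q (4247 cells), each in 7 of 7 tumors. In irradiated 1 the monocyte-like sum of 22 cells held only 7 UMIs of Ifi47, 2 of Igtp and 2 of Irgm1. Irgm1 stood there at 17.9 against 16.3 CPM, so the order in that tumor is within counting error. Iigp1 was at 80.1 against 54.8 CPM and higher in the monocyte-like cells in 4 of 7 tumors, where its monocyte-like sums held as few as 9 UMIs. Among T cells, conventional CD4 T cells (263 cells) had a median of 109.9 CPM of Igtp against 51.0 CPM in CD8 T cells (314 cells) and 75.5 against 26.9 CPM of Irgm2, each higher in 5 of 7 tumors. These were the 4 irradiated tumors and control 3, and controls 1 and 2 had the opposite order, with 34.8 and 44.1 CPM of Igtp in conventional CD4 T cells against 78.2 and 80.6 CPM in CD8 T cells. Igtp in conventional CD4 T cells ran from 109.9 to 121 CPM in irradiated and from 34.8 to 99.3 CPM in control tumors, on 6 to 27 UMIs a tumor and with no test. The lowest irradiated value, in irradiated 1, rested on 16 UMIs, so its distance from 99.3 CPM is within counting error. The share of all genes that parted the groups in this subset was not determined. In the T/NK-like class as a whole the groups overlapped for Igtp, and 5.39% of all genes lay higher in every irradiated tumor. Regulatory T cells (225 cells) were above CD8 T cells for Iigp1 in 6 of 7 tumors (109 against 98.1 CPM) and below them for Ifi47 in 6 of 7 (39.75 against 58.7 CPM). NK cells (58 cells) held 10 Iigp1 UMIs in all, or 16.4 CPM (exact 95% Poisson interval 7.88 to 30.2, counting error only).

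Tumors differed in their IRG levels in a way that ran across classes. Irradiated 4 had the highest level of the 7 tumors in 36 of the 48 pairs of member and class with any UMI, including all 7 members in both macrophage-like and MPNST-like cells. Iigp1 in MPNST-like cells stood at 36.2, 8.22 and 10.2 CPM in controls 1 to 3 and at 12.8, 37.5, 35.5 and 179 CPM in irradiated tumors 1 to 4. Control 1 thus lay beside irradiated 2 and 3, and irradiated 1 beside controls 2 and 3. Igtp in the same cells stood at 11.5, 4.89 and 5.33 CPM in the controls and at 6.73, 15.8, 11.6 and 35.7 CPM in the irradiated tumors, and Irgm1 at 24.0, 8.36 and 10.4 CPM against 10.5, 26.1, 27.5 and 59.6 CPM. For both regulators the same 3 tumors were lowest. These are the tumors of library set 1: in MPNST-like cells all 7 members, and in macrophage-like cells all 6 members tested, were higher in every tumor of set 2 than in any of set 1. That separation was seen for 18.9% and 12.1% of all genes in the 2 classes. It held for 4 of 5 members in T/NK-like cells (background 12.7%) and for 4 of 5 in fibroblast-like cells (background 10.1%). The part of library set in these levels was not tested apart from the terms given below.

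**Figure D3:**
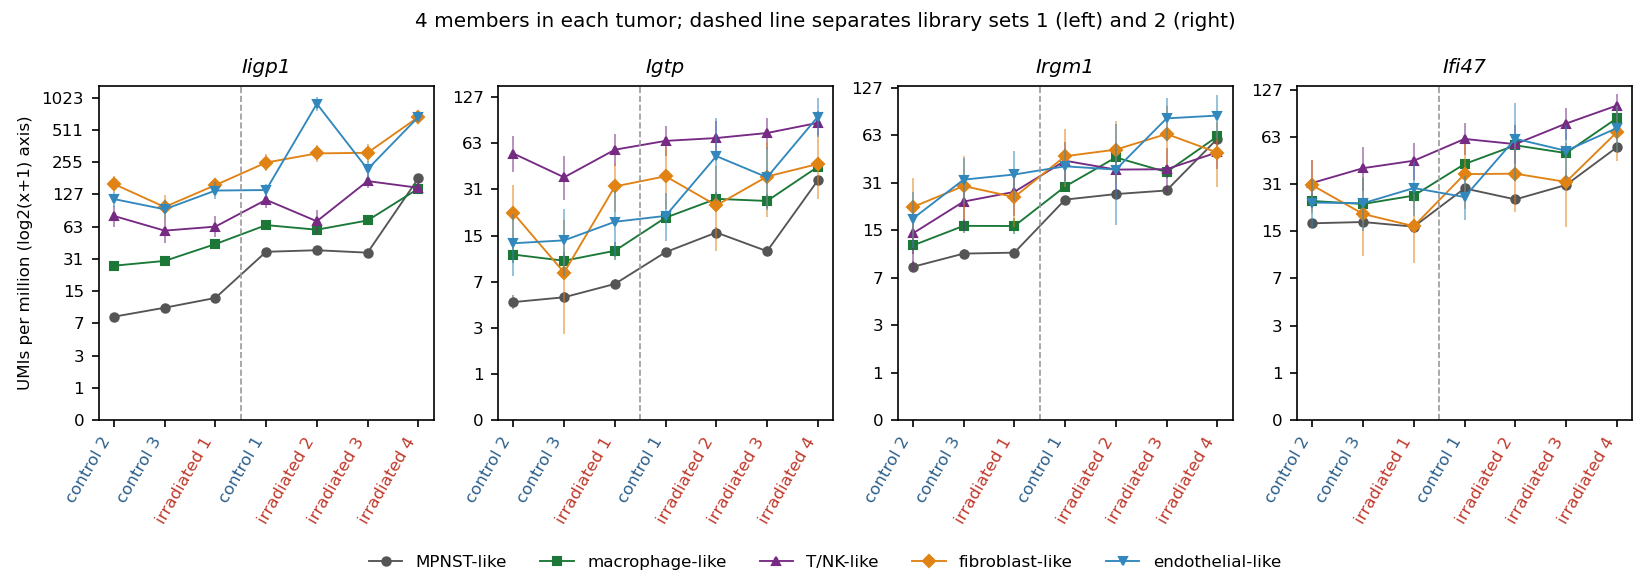
CPM of 4 IRGs in each of the 7 tumors in 5 cell classes, on a log2(CPM + 1) axis, with vertical bars giving exact 95% Poisson intervals and a dashed line parting library set 1 (left) from set 2. Irradiated 4 is highest for these members in macrophage-like and MPNST-like cells, and the tumors of set 1 are lowest there.

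The comparison of irradiated with control tumors asked whether fractionated radiation was followed by higher IRG levels in tumor and host cells at harvest. No gene of the 14687 tested in macrophage-like cells was called by edgeR (0%), with 2037 at an unadjusted p under 0.05 and 28 called by DESeq2's Wald test. Igtp averaged 27.1 ± 13.2 CPM in irradiated (SD, n = 4) and 13.6 ± 5.48 CPM in control tumors (n = 3), a log2 fold change of 1.08 ± 0.45 (SE, adjusted p = 0.358). Irgm1 stood at 29.2, 11.8 and 16.0 CPM in the controls and at 16.0, 45.2, 36.3 and 61.7 CPM in irradiated tumors, a log2 fold change of 1.16 ± 0.49. Ifi47 stood at 42.0, 24.0 and 22.9 CPM against 26.0, 55.6, 49.4 and 83.1 CPM, or 0.95 ± 0.40. Irgm2 gave 0.97 ± 0.34, Tgtp2 1.36 ± 0.69 (1.31 ± 0.71 summed with Tgtp1) and Iigp1 1.07 ± 0.49, with adjusted p of 0.358 to 0.382 for the 6 members tested. All 6 fold changes were above 0, and no member separated the groups, where 3.73% of all genes lay higher in every irradiated tumor. Irradiated tumors 2, 3 and 4 lay above all controls for each of these but Iigp1, for which irradiated 3 and 4 did, and irradiated 1 lay within the controls.

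With library set as a term, the 6 fold changes in macrophage-like cells were 0.46 to 0.62 (adjusted p 0.616 to 0.644). Within set 1, irradiated 1 minus the mean of controls 2 and 3 was 0.13 to 0.59 on the log2 scale, and within set 2 the 3 irradiated tumors minus control 1 gave 0.53 to 0.82. Without irradiated 4 the fold changes were 0.57 to 0.83. Without irradiated 1, edgeR called 962 genes, among them Irgm2 at 1.17 (adjusted p = 0.0452) and no other member.

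In MPNST-like cells 0 of 17395 genes were called (0%), with 213 at an unadjusted p under 0.05. Iigp1 averaged 66.3 ± 76.2 CPM in irradiated and 18.2 ± 15.6 CPM in control tumors, a log2 fold change of 1.78 ± 0.88 (adjusted p = 1.00) that stood at 0.63 without irradiated 4. Igtp gave 1.18 ± 0.53 (0.61 without irradiated 4), Irgm2 1.10 ± 0.59 (0.47), Irgm1 1.04 ± 0.54 (0.55), Tgtp2 1.57 ± 1.02 (0.62), Tgtp1 1.29 ± 1.13 (0.12) and Ifi47 0.48 ± 0.34 (0.12). The sum of Tgtp1 and Tgtp2 gave 1.53 ± 1.05. Without control 1 the values of the 7 members were 0.71 to 3.18. With library set as a term the 7 values were 0.10 to 0.83. Iigp1 thus had the largest mean difference among the members in tumor cells, and its SD in irradiated tumors exceeded its mean.

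**Figure D4:**
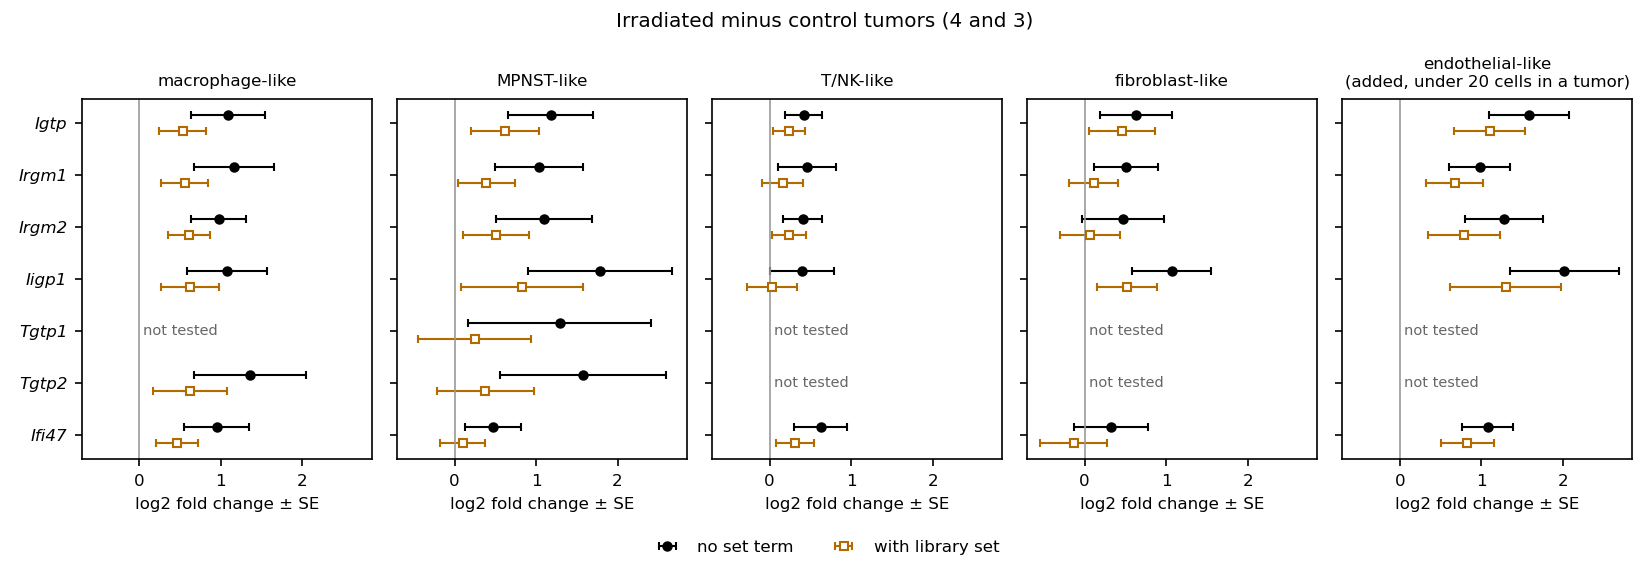
Log2 fold change, irradiated over control, of each IRG in 5 cell classes from edgeR, with bars of 1 SE, beside the value with library set as a term. Points in macrophage-like cells lie between 0.95 and 1.36 and move to between 0.46 and 0.62 with the set term.

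T/NK-like cells had smaller differences, with 0 of 9216 genes called (0%), 791 at an unadjusted p under 0.05 and 2 by DESeq2. Ifi47 gave 0.63 ± 0.32, Irgm1 0.45 ± 0.36, Igtp 0.42 ± 0.23, Irgm2 0.41 ± 0.24 and Iigp1 0.40 ± 0.39, with adjusted p of 0.563 to 0.697. Tgtp1 and Tgtp2 were each too sparse for a test, and their sum gave 0.87 ± 0.49 (adjusted p = 0.572). With library set as a term the members tested stood at 0.31 for Ifi47, 0.16 for Irgm1, 0.24 for Igtp, 0.24 for Irgm2 and 0.03 for Iigp1. Leaving out 1 tumor moved Irgm1 to 0.17 (without control 2) and 0.98 (without control 1) and Iigp1 to 0.15 (without irradiated 3) and 0.68 (without control 1). Iigp1 stood there at 113, 79.4 and 57.6 CPM in controls and 62.9, 70.7, 169 and 146 CPM in irradiated tumors, so that the groups overlapped widely. In fibroblast-like cells (0 of 7273 genes called, 0%, and 330 at an unadjusted p under 0.05) Iigp1 averaged 362 ± 220 CPM against 169 ± 78.4 CPM, or 1.07 ± 0.48 (adjusted p = 0.818), and the other 4 members tested gave 0.32 to 0.63. With library set as a term Iigp1 stood at 0.52, Igtp at 0.46, Irgm1 at 0.11, Irgm2 at 0.07 and Ifi47 at -0.14. Without irradiated 4 Iigp1 stood at 0.61 and Ifi47 at -0.11, and without control 2 Irgm2 stood at 0.05. No member separated the groups in MPNST-like, T/NK-like or fibroblast-like cells, where 1.4%, 5.39% and 3.53% of all genes lay higher in every irradiated tumor.

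The added fit gave the largest fold changes in endothelial-like cells, where 0 of 9179 genes were called (0%), 531 had an unadjusted p under 0.05 and 2 were called by DESeq2. Iigp1 stood at 139, 115 and 91.7 CPM in controls and at 138, 895, 219 and 673 CPM in irradiated tumors, a log2 fold change of 2.02 ± 0.67 (adjusted p = 0.835). Igtp stood at 20.5, 13.3 and 13.9 CPM against 18.7, 51.8, 37.4 and 94.4 CPM, or 1.59 ± 0.49 (adjusted p = 0.832). In both, irradiated 1 lay within the controls and the other 3 irradiated tumors above them. Ifi47 was, among the members tested in the 7 classes, the only one whose groups did not overlap, with 25.5, 23.4 and 23.2 CPM against 29.2, 61.2, 51.2 and 71.8 CPM and a fold change of 1.08 ± 0.32, in a class where 3.62% of all genes lay higher in every irradiated tumor. The lowest irradiated value of Ifi47, in irradiated 1, rested on 25 UMIs. Its exact 95% Poisson interval, 18.9 to 43.1 CPM, holds the control values. Irgm2 gave 1.28 ± 0.48 and Irgm1 0.98 ± 0.38. With the set term Iigp1 stood at 1.30 ± 0.68, Igtp at 1.11 ± 0.44, Ifi47 at 0.83 ± 0.33, Irgm2 at 0.79 ± 0.44 and Irgm1 at 0.67 ± 0.35. The irradiated 2 sum rested on 19 endothelial-like cells. In dendritic-like cells (0 of 5778 genes called, 0%) Irgm1 and Ifi47 could be tested and gave 0.27 and -0.40 (-0.25 and -0.50 with the set term), and in pericyte-like cells (0 of 6021, 0%) the 4 members tested lay between 0.31 and 1.11 (-0.27 to 0.92 with the set term). The groups overlapped for each, beside 2.22% and 2.72% of all genes that lay higher in every irradiated tumor.

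Whether the difference between irradiated and control tumors itself differed between classes was tested by an interaction term in macrophage-like, MPNST-like and T/NK-like cells. No gene was called in any of the 3 pairs of classes by edgeR, with 1507, 1460 and 1179 of 15969 genes at an unadjusted p under 0.05. Ifi47 differed by 0.42 ± 0.18 between macrophage-like and MPNST-like cells (adjusted p = 0.487), the member with the smallest p. Iigp1 differed by -1.18 ± 0.55 between T/NK-like and MPNST-like cells (adjusted p = 0.550).

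To set the members beside an interferon-γ target that the class gates did not use, macrophage-like cells were divided by whether they held a UMI of Cxcl9, a chemokine that draws T cells and is strongly induced by interferon-γ. Cells with Cxcl9 made up 8.02%, 2.69% and 2.56% of macrophage-like cells in controls 1 to 3 and 5.99%, 6.77%, 10.1% and 22.1% in irradiated tumors 1 to 4. Cells under 3000 UMIs were left out, which kept 1424 of 1521, 1901 of 2826 and 2066 of 2622 cells in controls 1 to 3. In irradiated tumors 1 to 4 it kept 1642 of 2019, 913 of 1004, 1051 of 1147 and 1476 of 1645. After thinning the kept cells to 3000 UMIs the shares were 5.41%, 2.10% and 2.03% against 4.75%, 4.38%, 6.76% and 15.7%. Irradiated 4 was highest in both, and control 1 exceeded irradiated 1. T/NK-like cells, which are not known to make Cxcl9, held 6 of its UMIs in 1400 cells at a median depth of 2072 to 5516.5 UMIs a cell in the 7 tumors, against 4303 to 12972 in macrophage-like cells.

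In Cxcl9-positive macrophage-like cells 5 members were higher than in the Cxcl9-negative cells of the same tumor, where 2.84% of 12887 genes were called in that direction. Iigp1 averaged 191 ± 44.9 CPM in positive and 49.6 ± 31.2 CPM in negative cells (SD, n = 7), a log2 difference of 2.05 ± 0.30 (adjusted p = 0.0167), and 0.163% of all genes had a larger one. Tgtp2 differed by 1.39 ± 0.29, Igtp by 1.23 ± 0.18 (43.7 ± 10.0 against 19.04 ± 10.4 CPM), Ifi47 by 0.99 ± 0.13 and Irgm1 by 0.83 ± 0.11, each higher in 7 of 7 tumors. Irgm2 stood at 0.60 ± 0.18 (adjusted p = 0.0784), higher in 6 of 7, and Tgtp1 was too sparse for a test. With cells thinned to equal depth Igtp (1.59 ± 0.28), Ifi47 (0.96 ± 0.19) and Irgm1 (0.86 ± 0.21) stayed called, whereas Iigp1 (1.88 ± 0.41, adjusted p = 0.0677) and Tgtp2 (1.06 ± 0.46, adjusted p = 0.251) did not. Of 19 other interferon-γ targets, 18 could be tested and all 18 were called higher in Cxcl9-positive cells, among them the guanylate-binding proteins Gbp2 (2.51 ± 0.21) and Gbp4 (2.43 ± 0.26).

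**Figure D5:**
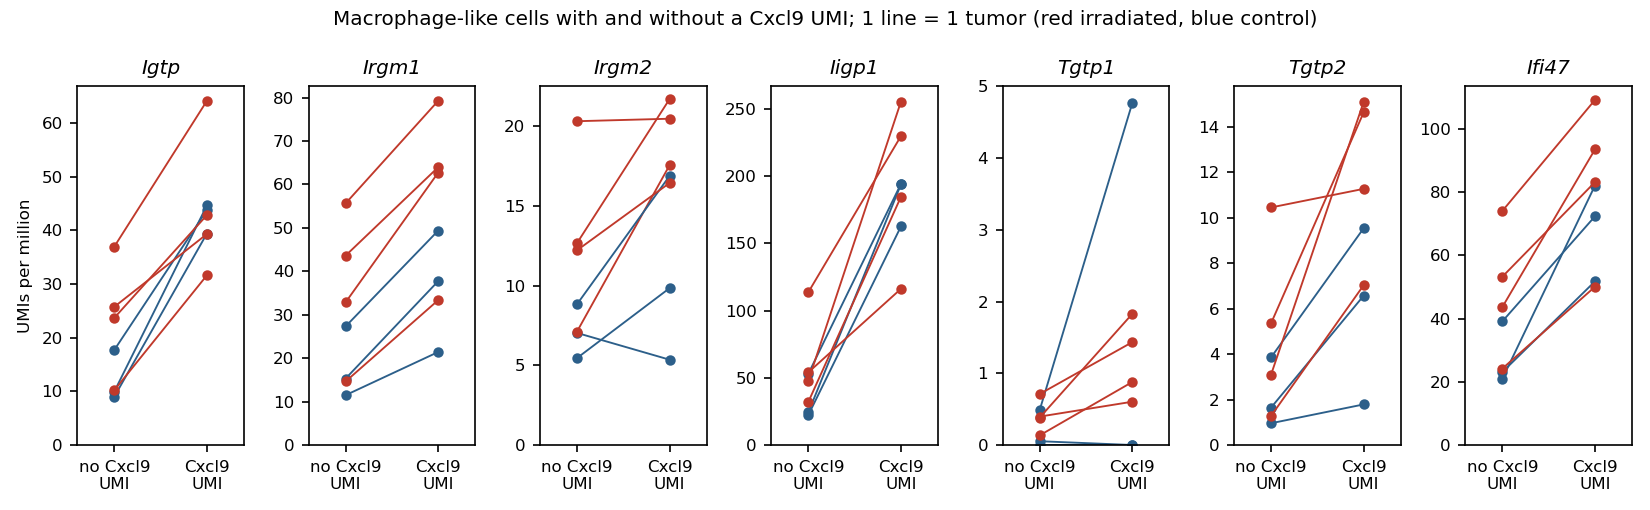
CPM of each IRG in Cxcl9-negative and Cxcl9-positive macrophage-like cells, with lines joining the 2 values of each of 7 tumors. For Iigp1, Igtp, Irgm1, Tgtp2 and Ifi47 the positive cells are higher in 7 of 7 tumors.

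The rest of the pathway was read from lists of ligands, receptors, factors and targets. Ifng, the ligand of the interferon-γ receptor, averaged 95.2 ± 46.9 CPM in T/NK-like cells and 0.0561 CPM in macrophage-like cells, and 764 of its 806 UMIs lay in T/NK-like cells. Ifnb1 gave 138 UMIs in all, and Ifna4 and Ifnl3 gave 0. The receptor chain Ifngr1 averaged 723 ± 149 CPM in T/NK-like and 225 ± 37.8 CPM in macrophage-like against 58.6 ± 10.3 CPM in MPNST-like cells, and Ifngr2 156 ± 26.3 CPM in macrophage-like cells. No list had a gene called for radiation (0 called in each). In macrophage-like cells 19 of 20 other interferon-γ targets passed the filter, and all 19 had a fold change above 0, with a median of 0.87 beside 0.01 over all genes. Cxcl9 stood at 1.70 ± 0.65 (adjusted p = 0.358) and Gbp4 at 1.39 ± 0.68 (adjusted p = 0.374). The 6 transcription factors had a median of 0.61, led by Irf7 at 1.31 ± 0.55, and the receptors one of 0.26. The 11 autophagy and vacuole partners of IRGs stood at a median of 0.11, with 10 above 0. In MPNST-like cells 19 of 20 targets were above 0 with a median of 0.82, in T/NK-like cells 15 of 17 with 0.46, and in endothelial-like cells 18 of 18 with 1.10. The negative regulators in MPNST-like cells, which include Socs1 and Ptpn2, had 1 of 5 above 0, against 5 of 5 in macrophage-like cells, 2 of 5 in T/NK-like, 1 of 4 in fibroblast-like and 2 of 3 in endothelial-like cells.

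Of 15 other IRG symbols looked for, 9 matched a feature. Gm4951 gave 17500 UMIs, F830016B08Rik 6741, 9930111J21Rik2 6028, Gm12185 3069, Irgq 2468, Gm4841 1240, Gm5431 1029, 9930111J21Rik1 466 and Irgc1 56. Gm4951 averaged 97.2 ± 45.8 CPM in fibroblast-like, 73.8 ± 49.7 CPM in pericyte-like and 32.8 ± 28.0 CPM in MPNST-like cells, with the stromal classes above the tumor cells as for Iigp1. 9930111J21Rik2 averaged 72.3 ± 28.9 CPM in T/NK-like and 4.51 ± 2.95 CPM in MPNST-like cells, with T/NK-like cells highest as for Igtp and Irgm2. Gm5431 was highest in macrophage-like cells at 7.51 ± 4.06 CPM and stood at 0.166 CPM in MPNST-like cells. Between irradiated and control tumors, 7 of the 8 tested in macrophage-like cells had a fold change above 0, with a median of 0.82, led by Gm5431 (1.11 ± 0.42), Gm4951 (1.11 ± 0.32) and Gm12185 (1.10 ± 0.39), and none was called.

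The genes most like the members were ranked by their mean Pearson correlation with the 7 over 28 sums of 7 tumors and 4 classes, among 14804 genes, as a description over sums that share libraries. Herc6 (0.784), Gbp7 (0.773), Helz2 (0.758), Pml (0.754) and Rigi (0.752) led. With each class centered on its own mean, a scale added after the data were seen that leaves only the variation among tumors, Gbp2 (0.844), Zbp1 (0.836), Rigi (0.832) and Pml (0.828) were among the leading genes. Between members, the correlations on this scale ran from 0.658 for Tgtp1 and Ifi47 to 0.897 for Irgm1 and Irgm2. Without centering they ran from 0.065 for Iigp1 and Tgtp1 to 0.847 for Igtp and Irgm2.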

How the data were processed

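The deposited matrices held raw UMI counts per gene and cell barcode from 7 tumors. The authors made them with Cell Ranger on mm10 per the labels, the file headers naming cellranger 8.0.0, and the submitters' processing notes also name Seurat 4.4. From these counts, cells within 3 median absolute deviations of their library's medians for log UMIs, log genes, mitochondrial share and ribosomal share were retained (34297 of 39537) and assigned to classes by marker counts; cells that met several gates (388) were left out, and no doublet caller was run. UMIs were summed per tumor and class. Python 3.11.15, R 4.3.3, edgeR 4.0.16 (filterByExpr, TMM, robust quasi-likelihood test, Benjamini-Hochberg adjustment over all genes tested, threshold 0.05) and, as an alternative, DESeq2 1.42.0 were used. The edgeR fit was tested on simulated counts for the radiation contrast in 4 classes. A minimum of 20 cells per tumor and class was set, and a minimum of 10 was added after the data were seen. The alternatives were size factors, total UMIs, no filter, a stricter gate, thinned cells, the library set, the replicate number as a block and leaving out each tumor. Library sets were the split of libraries, among 56, that left the smallest share (0.438, next best 0.539) of the variation in cells, depth, genes, mitochondrial and ribosomal share within sets. The members, gene lists and tests were chosen with earlier results of these data known. The named genes were the 7 members, the other IRG symbols and the pathway lists, of which the leading genes by size of fold change are given. Intervals cover counting error only. Promoters came from RefSeq (GRCm38.p6), with 6 of 7 members matched, and gene spans from GENCODE. Some genes of the lists and of the line's genotype are not reported here.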

Additional observations from a re-analysis of the deposited data

Results flagged for a closer look

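Among 47 sets of 4 irradiated tumors, each a member in a class, 5 held a tumor that stood apart from the other 3 by Dixon's ratio. About 1 in 20 is flagged by chance where values are normal, which does not hold for sums of a few UMIs. In 4 of the 5 it was irradiated 4 that was highest. Iigp1 reached 179 CPM there in MPNST-like cells, against 12.8 to 37.5 CPM in the other irradiated tumors, 527 CPM against 198 to 239 CPM in pericyte-like cells, and 59.3 CPM against 14.4 to 20.9 CPM in dendritic-like cells. Ifi47 in dendritic-like cells was at 57.2 CPM in irradiated 4 against 22.5 to 25.2 CPM. Irgm2 in dendritic-like cells was at 20.9 CPM in irradiated 2 against 3.60 to 4.09 CPM. Dendritic-like sums rest on as few as 17 cells and pericyte-like sums on as few as 12. No member's fold change differed between classes by the interaction test, at the adjusted p of 0.487 and above given before.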

How the results depend on the processing

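For the members, 1146 recomputed values kept their direction and side of the threshold, 17 gained a call, 21 lost one and 29 changed sign, and 386 recomputed counts stayed within 1.5 times the reported one; the cause of the changes was not tested except where fewer tumors or genes entered. Genes called for radiation were 28 in macrophage-like cells by DESeq2 and 0 to 962 when leaving out a tumor in turn, with 0 to 1 members, the upper ends without irradiated 1. In T/NK-like cells they were 9 with no filter, 2 by DESeq2 and 0 to 503, and in endothelial-like cells 2 by DESeq2 and 0 to 2. Interaction calls were 1 with no filter and 0 to 716 for macrophage-like against MPNST-like, 1 and 0 to 466 for T/NK-like against MPNST-like, and 0 to 139 for macrophage-like against T/NK-like cells, the upper ends again without irradiated 1. Members called between macrophage-like and T/NK-like cells were 2 to 6 (4 as reported, 2 without control 1), and between Cxcl9-positive and Cxcl9-negative cells 3 with thinned cells and 3 to 6 (5 as reported, 3 without irradiated 3), with 308 to 552 genes called (308 without irradiated 2 and 335 without irradiated 3).

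Sign changes among uncalled values were as follows. Ifi47 in fibroblast-like cells was -0.14 with the set term and -0.11 to 0.64 when leaving out a tumor. Irgm1 was -0.25 with the set term and -0.22 to 0.63 in dendritic-like cells, -0.27 and -0.013 to 1.07 in pericyte-like cells, and, for macrophage-like against T/NK-like cells, -0.034 with DESeq2 size factors, -0.21 with total UMIs alone and -0.080 to 0.23. For the interaction of macrophage-like and MPNST-like cells, Tgtp1 was 0.11 with the stricter gate and -0.31 to 1.14, Igtp -0.17 to 0.066, Irgm2 -0.50 to 0.12 and Tgtp2 -0.68 to 0.28. For T/NK-like and MPNST-like cells Tgtp1 was -0.99 to 0.69 and Tgtp2 -1.63 to 0.36, and for macrophage-like and T/NK-like cells Tgtp1 was -0.0026 with DESeq2 size factors and -0.34 to 2.13 and Tgtp2 -0.49 to 0.95.

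The replicate number as a block, over numbers 1 to 3 and so without irradiated 4, gave 0 genes called in all 4 classes tested, and Ifi47 in fibroblast-like cells turned to -0.091. Same-numbered tumors did not deviate together (correlations of -0.163, -0.114 and -0.046 in macrophage-like cells), and the labels give no pairing. Low counts limit Tgtp1 and Tgtp2, and 12 to 50 cells a tumor limit pericyte-like sums.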
